A study of Mus musculus with 4 samples.

Results

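The subject here is the core of the Hedgehog pathway in the mouse lens, 10 genes that encode the receptor (*Ptch1*), the signal transducer (*Smo*), its co-receptors (*Gas1*, *Cdon*, *Boc*), the decoy receptor (*Hhip*), the inhibitor of the Gli factors (*Sufu*) and the Gli factors themselves (*Gli1*, *Gli2*, *Gli3*). They were found by gene name among the 56748 genes of the deposited table, and all 10 had 1 row each. The list holds genes of known function, but it was selected on the mutant and control FPKM of these libraries, which were already in view when it was drawn up. Every difference between mutant and control lenses in these 10 genes is therefore given as a description and supports nothing by itself.

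Whole lenses were taken from mice 10 to 12 days old. The mutant group was *Fsp1-cre;Pdgfrb+/D849V*, which carries an activating *Pdgfrb* allele at its own locus, switched on by a cre transgene under the *Fsp1* (*S100a4*) promoter, and neither allele is specific to the lens. Both control libraries are labelled *Fsp1-cre;Pdgfrb+/+*, so by the labels every group carries the cre, whereas the study's methods describe the control pools as mixed, with cre-negative mice and mice with the D849V allele but no cre among them. Each group had 2 libraries, called replicates 1 and 2, and each library was made from the pooled lenses of several mice, so that the spread between libraries is that between pools.

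Hedgehog ligands bind Patched, which otherwise holds Smoothened inactive. Once Smoothened is released at the primary cilium, SUFU lets go of the Gli factors, and GLI2 and GLI3 activate target genes rather than being cut into repressors. *Gli1*, *Ptch1* and *Hhip* are themselves targets, so their transcripts are widely read as a gauge of signaling, while *Gas1*, *Cdon* and *Boc* encode cell-surface proteins that help the ligand reach Patched. In the eye the pathway is best known for the patterning of the optic field and for ligand secreted by retinal ganglion cells.

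The 4 libraries held between 18561682 and 18878768 reads, recovered from FPKM (fragments per kilobase of gene length, scaled for sequencing depth), and crystallin genes took between 58.6% and 62.9% of them. The defining markers of lens were present, with 1 exception. *Mip* and *Bfsp1*, fibre membrane and cytoskeleton genes, lay above 2900 FPKM in every library, and the epithelial factor *Foxe3* lay between 103 and 122 FPKM. Of the 6 fibre markers, the exception, *Lim2*, was listed at 0 in every library, and its position overlaps that of *Gm52993* on the same strand. Corneal epithelium markers summed to between 0.0232 and 0.0879 FPKM. *Pdgfrb* itself had 2.36 and 2.16 FPKM in the mutant and 2.25 and 1.79 FPKM in the control libraries. *Xist* had 7.62 and 13.1 FPKM in mutant replicates 1 and 2 and 15.6 and 5.56 FPKM in control replicates 1 and 2, so the pools differed in sex composition within both genotypes. Fewer cells of a type and less RNA per cell cannot be told apart in such bulk libraries.

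Promoters are shown for *Ptch1* and *Smo*, the receptor and the transducer, because these had the lowest log2 fold changes of the 8 genes that could be tested. The order of the 4 libraries from high to low was the same for both, and *Sufu* shared it. Each window runs from 250 bases before to 50 bases after the annotated start in RefSeq on build GRCm38.p6, and capitals mark the GC box GGGCGG or its reverse complement CCGCCC.
*Ptch1* promoter, chr13:63565686-63565985, minus strand: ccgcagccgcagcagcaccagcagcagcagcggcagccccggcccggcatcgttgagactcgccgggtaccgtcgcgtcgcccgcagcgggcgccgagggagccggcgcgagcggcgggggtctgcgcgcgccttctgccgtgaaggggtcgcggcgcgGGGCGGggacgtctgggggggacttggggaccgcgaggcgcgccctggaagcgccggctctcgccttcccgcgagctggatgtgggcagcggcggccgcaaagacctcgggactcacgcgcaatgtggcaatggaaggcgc
*Smo* promoter, chr6:29735247-29735546, plus strand: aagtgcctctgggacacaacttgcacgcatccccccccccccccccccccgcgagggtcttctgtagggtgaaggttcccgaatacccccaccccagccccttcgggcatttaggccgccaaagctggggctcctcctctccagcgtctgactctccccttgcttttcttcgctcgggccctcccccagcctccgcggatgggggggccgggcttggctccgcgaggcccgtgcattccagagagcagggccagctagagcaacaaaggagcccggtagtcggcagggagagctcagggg

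The *Ptch1* window held 47 CpG dinucleotides and 1 GC box, at 76.3% G and C. The *Smo* window held 17 CpG dinucleotides and no GC box, at 67.7% G and C, against a median of 7 CpG and 52.7% over 32851 promoter windows of the same length. Of the 10 genes, 8 had a window in the table, all but *Gli1* and *Boc*, and 6 of the 8 held a GC box, as did 35.7% of all windows. The core of the Gli binding site, GACCACCCA, was searched on both strands (reverse complement TGGGTGGTC). It occurred in 0 of the 8 windows and in 0.253% of all windows, and its absence says only that these letters are not in these 300 bases.

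The lens libraries held transcripts of the receptor, the transducer, the inhibitor and 2 of the Gli factors, and at most 5 reads a library of *Gli1* and *Hhip*. Positions are those of the deposited table, for which the submitters' processing notes name build mm39, and levels are FPKM, which are per gene length. *Smo* (chromosome 6, 29735502 to 29761364) was highest, with 3.39 and 4.14 FPKM in the mutant and 5.51 and 4.97 FPKM in the control libraries. *Gas1* (chromosome 13, 60322219 to 60325179), which encodes a GPI-anchored co-receptor, followed at a mean of 2.42 ± 0.499 FPKM (SD, n = 4 libraries). The ranges of *Smo* and *Gas1* did not overlap, and *Smo* exceeded *Gas1* in 4 of 4 libraries.

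*Sufu* (chromosome 19, 46385335 to 46477243), *Gli2* (chromosome 1, 118761862 to 118981349), *Cdon* (chromosome 9, 35332424 to 35418948) and *Ptch1* (chromosome 13, 63656142 to 63721412) formed a middle tier with means of 1.59, 1.44, 1.29 and 1.28 FPKM. Each of these 4 overlapped its neighbour in range. *Sufu* lay above *Gli2* in 3 of 4 libraries, *Gli2* above *Cdon* in 4 of 4 and *Cdon* above *Ptch1* in 2 of 4. *Gli3* (chromosome 13, 15637820 to 15904611), the main source of Gli repressor, lay below them at 0.452 ± 0.0921 FPKM. *Boc* (chromosome 16, 44305412 to 44379260), the paralog of *Cdon*, followed at 0.147 ± 0.0603 FPKM, or 7 to 20 reads a library. The steps from *Ptch1* to *Gli3* and from *Gli3* to *Boc* had no overlap in range, with ratios of the means of 2.82 and 3.07.

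*Gli1* (chromosome 10, 127165751 to 127177843), the most direct transcriptional target, had 5 and 3 reads in mutant lenses against 2 and 1 in controls, or 0.0561, 0.0307, 0.0206 and 0.0109 FPKM. Its summed reads, 8 against 3, gave a mutant to control ratio of 2.70 with an exact 95% counting interval from 0.648 to 15.8, so no difference was detectable at this depth. *Hhip* (chromosome 8, 80692480 to 80784635), the secreted and membrane-bound ligand trap, had 2 and 2 reads in mutant lenses against 0 and 0 in controls. A count of 0 allows up to 3 reads, which for *Hhip* lies between 0.0169 and 0.0185 FPKM, above the values in the mutant libraries. Among the Gli genes the order was therefore *Gli2*, *Gli3*, *Gli1* in every library, and *Gli2* had a mean level over 4 libraries of 1.44 FPKM against 0.0296 FPKM for *Gli1*.

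**Figure D1:**
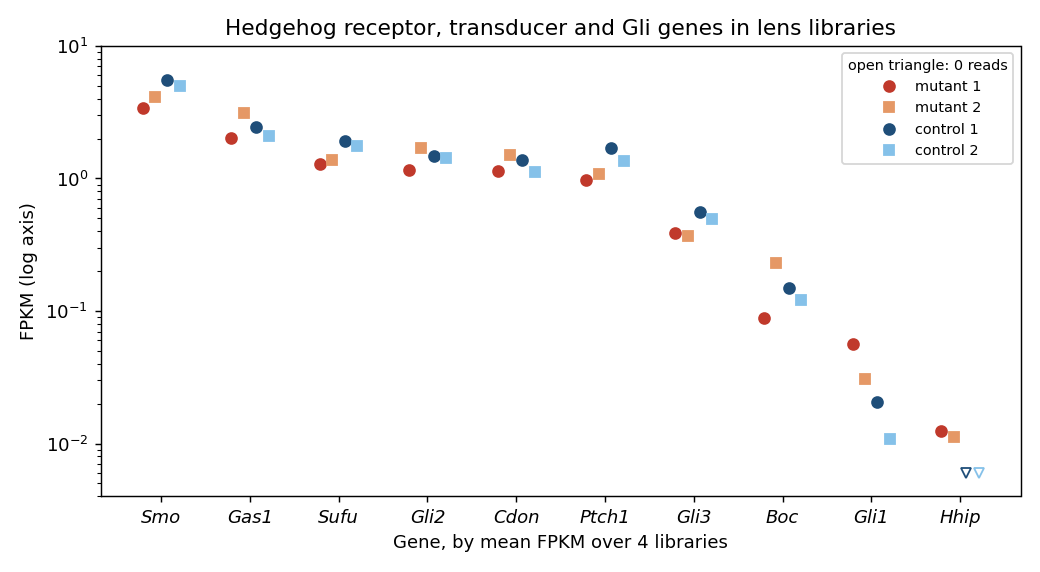
FPKM (log axis) of the 10 Hedgehog core and co-receptor genes in each of the 2 mutant and 2 control lens libraries, ordered by mean FPKM, 1 point a library, with open triangles for 0 reads. *Smo* lies highest, *Sufu*, *Gli2*, *Cdon* and *Ptch1* overlap, and *Gli1* and *Hhip* lie below 0.06 FPKM in every library.

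Mutant and control lenses were compared at this young age to ask how the *Pdgfrb* allele affects the lens transcriptome of mice that later develop cataract. *Ptch1* had 0.973 and 1.08 FPKM in mutant replicates 1 and 2 and 1.70 and 1.35 FPKM in control replicates 1 and 2, from 246, 300, 468 and 354 reads. Both mutant libraries lay below both control libraries, and the log2 fold change of FPKM + 0.1 was -0.52 (standard error 0.18). *Smo* showed the same arrangement, with 340 and 456 reads in mutant lenses against 602 and 515 in controls and a log2 fold change of -0.47 (standard error 0.14). *Sufu*, whose product holds Gli factors in the cytoplasm, had 1.29 and 1.39 FPKM in the mutant and 1.91 and 1.76 FPKM in the control libraries, without overlap, and a log2 fold change of -0.43 (standard error 0.14). An activator (*Smo*) and inhibitors of the pathway (*Ptch1*, *Sufu*) each had both mutant libraries below both controls, as did 18.3% of all genes tested.

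*Gli3* had 0.386 and 0.368 FPKM in the mutant and 0.563 and 0.492 FPKM in the control libraries, from 66, 69, 105 and 87 reads. Its groups did not overlap either, and its log2 fold change was -0.39 (standard error 0.23). *Gli2* had 1.15 and 1.69 FPKM in the mutant and 1.48 and 1.43 FPKM in the control libraries. The mutant libraries lay on either side of the controls, so that the log2 fold change of -0.06 was smaller than its standard error of 0.21. The co-receptors behaved like *Gli2*. *Gas1* had 2.03 and 3.12 FPKM in the mutant and 2.43 and 2.11 FPKM in the control libraries (log2 fold change 0.15, standard error 0.23). *Cdon* had 1.14 and 1.51 FPKM against 1.37 and 1.13 FPKM (0.07, standard error 0.20). *Boc* had 0.0882 and 0.230 FPKM against 0.150 and 0.122 FPKM (0.08, standard error 0.51). In each of these 4 genes, *Gli2* included, mutant replicate 2 was the highest library, as it was for 23.0% of all genes tested.

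Of the 10 genes, 8 passed the filter of a mean of at least 0.1 FPKM, with *Boc* at 0.147 FPKM the lowest inside it and *Gli1* at 0.0296 FPKM the highest outside it. Of the 8, 5 had a log2 fold change below 0, as did 49.3% of the 15997 genes tested, and their median was -0.23 against 0.00409 for all genes tested. In 4 of the 8, both mutant libraries lay below both controls, which held for 18.3% of all genes, and in 0 of the 8 both lay above, which held for 18.2%. Outside the filter, *Gli1* and *Hhip* had both mutant libraries above both controls, at no more than 5 reads a library. Limma's moderated test on log2(FPKM + 0.1) with Benjamini-Hochberg adjustment over all genes called 0 of the 8 at an adjusted p under 0.05 and 0.0375% of all genes. At an unadjusted p under 0.05 it listed 3 of the 8 as lower, *Ptch1*, *Smo* and *Sufu*, with 2.92% of all genes, and 0 as higher, with 3.39%. That count fell to 2 without a trend (without *Smo*) and with a replicate block (without *Sufu*), to 1 (*Smo*) without mutant replicate 2, and to 0 without mutant replicate 1, control replicate 1 or control replicate 2. Limma's voom on the recovered reads called 0 of the 8 at an adjusted p under 0.05, with 0.0875% of all genes, and listed 3 at an unadjusted p under 0.05, with 7.43%. Since the genes were picked with this comparison in view, these shares are given beside the counts and nothing is read from them.

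**Figure D2:**
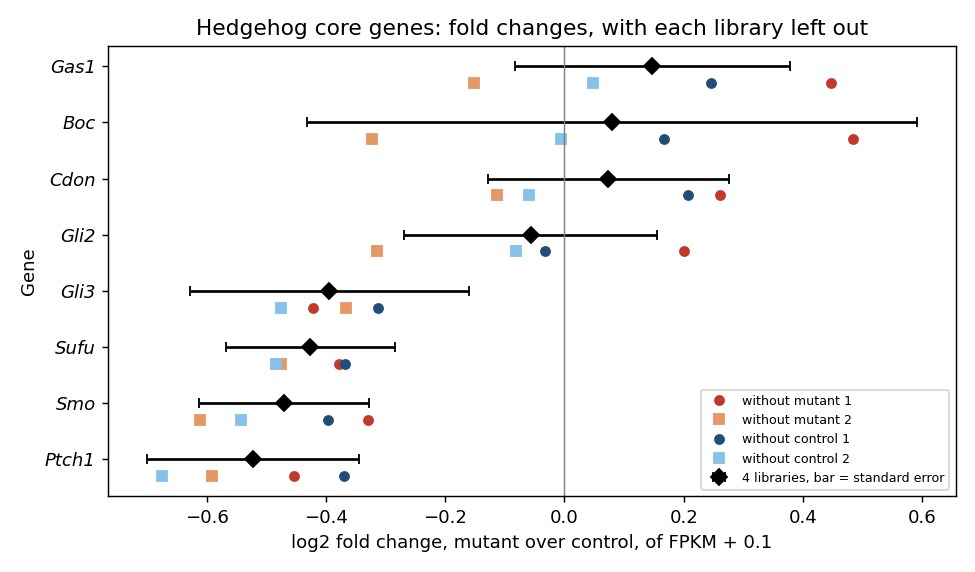
Log2 fold change (mutant over control, of FPKM + 0.1) of the 8 tested genes, with diamonds for the fit on 4 libraries, bars for its standard error and smaller points for fits that left out 1 library. *Ptch1*, *Smo*, *Sufu* and *Gli3* stay below 0 in every fit shown, whereas *Gli2*, *Cdon*, *Boc* and *Gas1* fall on either side of 0 depending on the library left out.

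The 8 tested genes fell into 2 profiles over the libraries, named here after their values were seen. *Ptch1*, *Smo* and *Sufu* shared the order control 1, control 2, mutant 2, mutant 1 from high to low, an order held by 5.75% of the genes tested, and *Gli3* differed from it only in the order of the mutant libraries. *Gas1*, *Gli2* and *Boc* shared the order mutant 2, control 1, control 2, mutant 1, held by 4.62% of the genes tested, and *Cdon* differed from it in the last places. The distance of centred log2(FPKM + 0.1) values over the 4 libraries from *Ptch1* was 0.161 for *Smo*, 0.167 for *Sufu* and 0.213 for *Gli3*. It was 0.566 for *Gli2*, 0.619 for *Cdon*, 0.749 for *Gas1* and 0.771 for *Boc*. The median distance from *Ptch1* over 7548 protein-coding genes with a mean of at least 1 FPKM was 0.619, where *Cdon* lay. Since the 2 profiles were drawn from these same values, the smaller distances of *Smo*, *Sufu* and *Gli3* only describe the grouping.

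Mutant replicate 1 was the lowest library for 6 of the 8 genes, against 26.7% of all genes tested. Control replicate 1 was the highest for the 4 genes of the first profile, against 24.6% of all genes tested. Cell type markers also varied between the libraries. Of the 4 lens epithelium markers, 3 were lowest in mutant replicate 1 (*Foxe3*, *Cdh1* and *Pdgfra*), and the 4 summed to 120 and 144 FPKM in the mutant and 135 and 139 FPKM in the control libraries. *Cdh1*, the epithelial cadherin, had 5.81 and 10.1 FPKM in the mutant and 12.1 and 8.25 FPKM in the control libraries. The log2 fold changes of the 4 markers were -0.03 for *Foxe3*, 0.0042 for *Pax6*, -0.38 for *Cdh1* and -0.28 for *Pdgfra* (standard errors 0.12, 0.10, 0.31 and 0.16), and the mutant libraries of *Pdgfra* both lay below both controls.

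All 6 photoreceptor markers were highest in mutant replicate 2. The share among genes tested was 23.0%, but *Sag*, *Gnat1* and *Nrl* did not pass the filter for testing. *Rcvrn* had 7 reads in mutant replicate 2 against 6 in control replicate 2. *Gas1*, *Gli2*, *Cdon* and *Boc*, grouped here by their pattern, were highest in the same library. The summed level of the photoreceptor markers was 0.343 and 2.61 FPKM in the mutant and 0.958 and 0.445 FPKM in the control libraries. These sums came from 20, 239, 104 and 20 reads. Macrophage markers summed to 1.43 and 1.56 FPKM in mutant lenses against 0.688 and 0.533 FPKM in controls, without overlap, from 39, 51, 22 and 22 reads. The 6 mural cell markers summed to 18.7 and 16.0 against 16.9 and 17.5 FPKM, and the 6 endothelial markers to 8.62 and 5.65 against 8.45 and 6.79 FPKM, both with overlap. Of the 4 mural markers tested, the pericyte gene *Rgs5* had a log2 fold change of -0.59, without overlap, and *Acta2*, *Pdgfrb* and *Kcnj8* had 0.17, 0.16 and 0.36, with overlap. Fibroblast markers summed to 1.01 and 1.32 FPKM in the mutant and 0.799 and 0.722 FPKM in the control libraries, with *Lum* at 0 in every library. Markers of pigmented epithelium summed to 0.634 and 0.709 against 0.845 and 1.34 FPKM, and neither pair of sums overlapped. *Col1a1* had 28 and 40 reads in mutant lenses against 6 and 9 in controls (log2 fold change 1.22, limma adjusted p = 0.785). *Col1a2*, the other fibroblast marker tested, had 0.29 with overlap. The part of these cell types in the values of the Hedgehog genes was not tested.

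**Figure D3:**
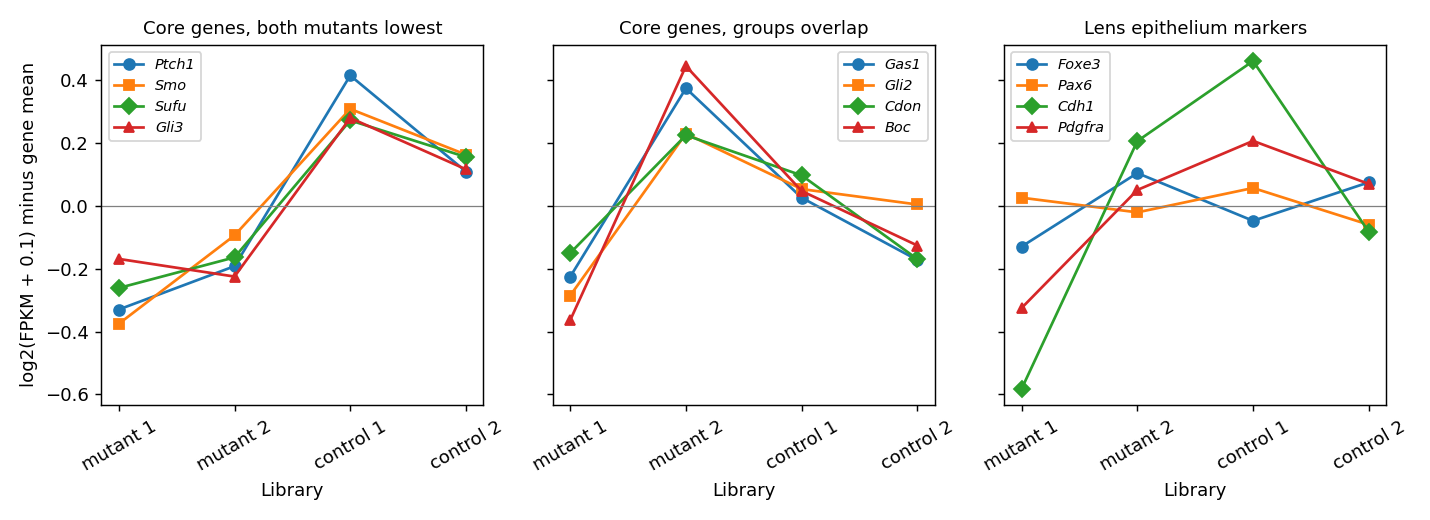
Centred log2(FPKM + 0.1) in the 4 lens libraries, with lines that only join the values of 1 gene, for the genes whose mutant libraries both lay lowest (left), those whose groups overlapped (middle) and the 4 lens epithelium markers (right). Mutant 1 is the lowest library for 6 of the 8 genes, all but *Gli3* and *Cdon*, and for 3 of the 4 markers, and mutant 2 is highest for each gene of the middle panel.

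The rest of the pathway was described from lists of 67 genes set by function, of which 55 passed the filter. Of these, 23 had a log2 fold change above 0 and 32 below 0, with a median of -0.03 against 0.00409 for all genes tested. Limma called 0 of the 55 at an adjusted p under 0.05 (0.0375% of all genes) and listed 4 as lower (2.92% of all genes) and 0 as higher (3.39%) at an unadjusted p under 0.05. Voom called 0 at an adjusted p under 0.05 and listed 12 in either direction at an unadjusted p under 0.05, with 7.43% of all genes. The limma count in either direction was 2 with a replicate block, beside 877 of all 15997 genes. It was 3 of 34 genes with a mean of at least 1 FPKM, beside 617 of 8378. It was 5 with a pseudocount of 0.01 and 6 when scaled to reads outside crystallin genes or with a term for sex composition. Of all 15997 genes, these 3 settings listed 1010, 1029 and 1099. In 16 of the 55 both mutant libraries lay below both controls, against 18.3% of all genes, and in 8 both lay above, against 18.2%.

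Ligand transcripts were at the floor. *Shh* and *Dhh* were listed at 0 in every library, and *Ihh* had 1 and 1 reads in mutant lenses against 0 and 1 in controls. Genes for the release of ligand were present, above all *Scube3* and *Scube1*, which encode secreted carriers, at means of 3.75 and 1.60 FPKM, and *Disp1*, which encodes the Dispatched exporter, at 0.727 FPKM. *Scube1* had 1.29 and 1.37 FPKM in the mutant and 2.33 and 1.41 FPKM in the control libraries (log2 fold change -0.42, standard error 0.25, limma adjusted p = 0.811). Its control libraries differed by more than the gap between control replicate 2 and the mutant libraries. Of 9 genes in this list 4 passed the filter, 2 with log2 fold changes above and 2 below 0.

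At the receptor, *Mgrn1* and *Mosmo*, which attenuate signaling by removing Smoothened from the cell surface, had means of 16.1 and 1.42 FPKM, with log2 fold changes of -0.01 and 0.01 and limma adjusted p of 0.994 and 0.995. Among the 11 transducers, all of which passed the filter, 7 had a log2 fold change below 0 and the median was -0.16. Both mutant libraries lay below both controls for 4 of the 11 and above for 1, against 18.3% and 18.2% of all genes. The arrestin genes *Arrb2* and *Arrb1*, which encode adaptors of Smoothened as of many receptors, had 53 and 45 reads in mutant lenses against 83 and 76 in controls and 130 and 133 against 239 and 173. Their log2 fold changes were -0.63 and -0.54 (standard errors 0.18 and 0.21, limma adjusted p = 0.717 and 0.787), and neither pair of groups overlapped. *Grk2*, the kinase of activated Smoothened, had 3.35 and 2.92 against 3.17 and 3.01 FPKM, and *Tulp3*, a carrier of receptors into the cilium, had 1.10 and 1.61 against 1.46 and 1.74 FPKM, both with overlapping groups.

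The 16 genes for Gli kinases and degradation had the highest median level of the 6 lists, 4.51 FPKM, with 7 log2 fold changes above and 9 below 0 with a median of -0.01. *Skp1* and *Cul1*, parts of the ligase that processes GLI3, and *Prkar1a*, the regulatory subunit of protein kinase A, had means of 44.4, 26.1 and 39.3 FPKM. Their log2 fold changes were 0.10, 0.23 and 0.04, with limma adjusted p of 0.876, 0.809 and 0.925. For *Cul1* and *Prkar1a* both mutant libraries lay above both controls, and for *Skp1* the groups overlapped. In the whole list both mutant libraries lay above both controls for 3 of the 16 genes and below for 3. The shares of all genes were 18.2% and 18.3%. *Itch*, a ubiquitin ligase that acts on GLI1 and Patched among other substrates, had 1.47 and 1.75 FPKM in the mutant and 2.24 and 2.14 FPKM in the control libraries, without overlap (log2 fold change -0.43, standard error 0.15, limma adjusted p = 0.769). The 11 cilium assembly genes had 6 log2 fold changes above and 5 below 0 with a median of 0.02. Both mutant libraries lay below both controls for 2 of the 11 and above for 1. *Kif3a*, *Ift52* and *Ift172*, which encode a motor and parts of the transport trains, had means of 20.2, 6.76 and 2.52 FPKM with overlapping groups.

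Of 14 textbook target genes other than those above, 8 passed the filter, with 2 log2 fold changes above and 6 below 0 and a median of -0.24. *Sfrp1*, a secreted Wnt antagonist, was the highest at 143 FPKM, with 136 and 144 FPKM in the mutant and 145 and 147 FPKM in the control libraries (log2 fold change -0.06, standard error 0.09, limma adjusted p = 0.894). *Mycn* had 8.19 and 8.18 against 10.2 and 9.40 FPKM (log2 fold change -0.25, standard error 0.10, limma adjusted p = 0.787). *Ccnd1*, cyclin D1, had 5.40 and 7.67 against 10.8 and 8.21 FPKM (log2 fold change -0.54, standard error 0.22, limma adjusted p = 0.800), and its lowest and highest libraries were those of *Ptch1*. In 5 of the 8, these 3 with *Ccnd2* and *Bcl2*, both mutant libraries lay below both controls (18.3% of all genes), and in 2, *Foxs1* and *Foxc2*, both lay above (18.2%), at no more than 8 reads a library. These targets answer to many pathways, and *Ccnd1* overlaps *LTO1* on the other strand. *Nkx2-2* and *Foxl1* were listed at 0 in every library.

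**Figure D4:**
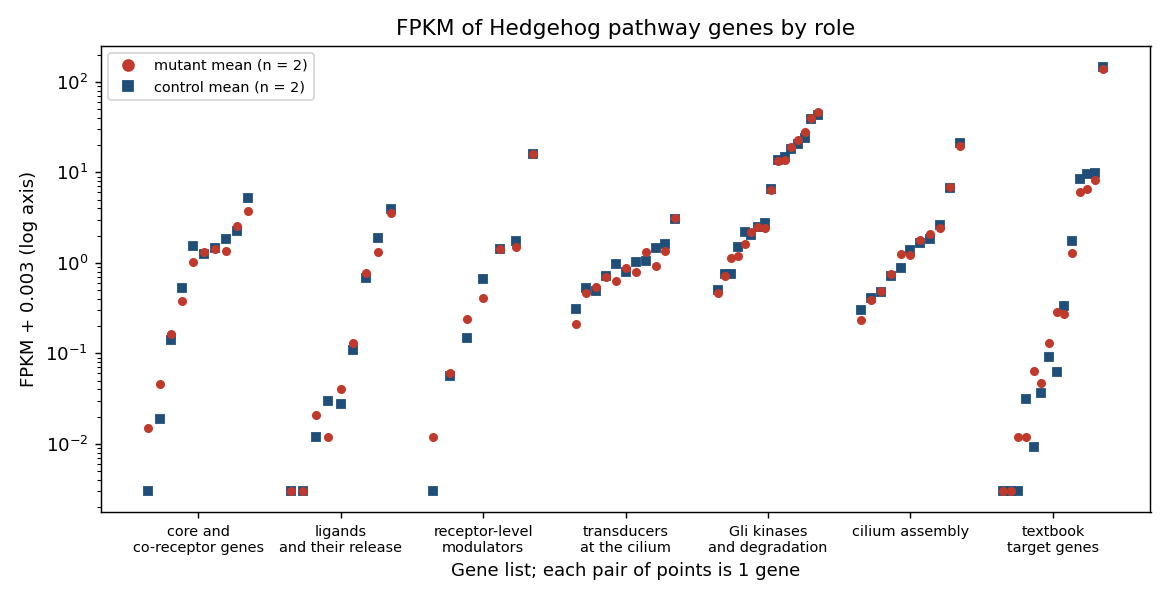
Mean FPKM (log axis, 0.003 added) of the mutant and control libraries for the Hedgehog core genes and for 6 lists of other pathway genes, with the genes of each list in order of level and 1 pair of points a gene. All 16 genes for Gli kinases and degradation passed the filter on mean FPKM, while *Shh* and *Dhh* lie at the bottom of the ligand list.

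Among 7548 protein-coding genes with a mean of at least 1 FPKM, those closest to *Ptch1* in centred log2(FPKM + 0.1) over the 4 libraries were *Slc7a2*, *Ccdc80* and *Lmtk2*, at distances of 0.0233, 0.0387 and 0.0568, where the median gene lay at 0.619. *Slc7a2*, an amino acid transporter gene, had 13.1 and 14.5 FPKM in the mutant and 21.8 and 18.0 FPKM in the control libraries. Those closest to *Smo* were *Ptprf*, *Icmt* and *Myh9*, at distances of 0.0423, 0.0486 and 0.0633, where the median gene lay at 0.567. With 4 libraries such distances describe these libraries alone.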

How the data were processed

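Reads were aligned by the study's sequencing provider with HISAT2 and counted per gene with featureCounts, and the authors deposited FPKM for 56748 genes with gene lengths and positions. The submitters' processing notes name build mm39. Whole reads were recovered as FPKM times gene length divided by the smallest such product of a library. In every library 100% of values above 0 came out whole within 0.01. The deposited scaling was not by plain read totals, and a median-ratio rescaling changed all 4 libraries by a common factor of 1.01. The 15997 genes with a mean of at least 0.1 FPKM entered a limma fit (lmFit, eBayes, trended variance) of log2(FPKM + 0.1) on genotype alone. Fold changes on this scale understate those of low genes. Voom on recovered reads, scaled by the same factors, was an alternative. Intervals and floors cover counting error only.

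The 10 genes and the lists were chosen with earlier results of these data known. Named besides the 10 genes were, in each other list, the 3 genes with the highest mean FPKM and any with an unadjusted limma p under 0.05, the 3 ligands, *Xist*, cell type markers and the 3 genes nearest in profile to *Ptch1* and *Smo*. Some genes that the rule names are not reported here. The rule did not cover *Nkx2-2*, *Foxl1*, *Ccnd2*, *Bcl2*, *Foxs1* and *Foxc2*, which were picked after their values were seen. The 4 Y genes of the rule had their highest or second highest level in the libraries with low *Xist*. On simulated reads of 15570 genes with 198 changed by a log2 of 2, limma called 81.8% of the changed and 54 unchanged genes. Voom called 97.0% of the changed and 5 unchanged genes. The calling of smaller differences, such as those of the Hedgehog genes, was not tested. Promoter windows came from RefSeq, matched by symbol. Software was R 4.3.3, limma 3.58.1, Python 3.11.15, numpy 2.4.6, pandas 2.3.3, scipy 1.17.1 and matplotlib 3.10.9.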

Additional observations from a re-analysis of the deposited data

How the results depend on the processing

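The number of genes called at an adjusted p under 0.05 was 6 and rested on few genes. It was 2 with a pseudocount of 1 or of 0.01, with genes of a mean of at least 1 FPKM, without a trend and with a replicate block, 1 without the filter and with a term for sex composition, 14 with voom, and 0 to 0 with each library left out in turn, where 787 to 1464 genes had an unadjusted p under 0.05. None of these settings called any of the 8 tested Hedgehog genes or the 55 other pathway genes. The log2 fold changes of *Ptch1*, *Smo*, *Sufu* stayed below 0 in every setting, as did that of *Gli3* in each setting that tested it, all but the filter at 1 FPKM. With each library left out in turn, *Gli2* ranged from -0.31 to 0.20, *Gas1* from -0.15 to 0.45, *Cdon* from -0.11 to 0.26 and *Boc* from -0.32 to 0.48, and the number of the 8 genes with a value below 0 ranged from 4 (without mutant replicate 1) to 8 (without mutant replicate 2). In the order of levels, 0 to 2 of the 10 genes changed place. Same-numbered libraries did not deviate together (r = -0.0051 across genes), but a correlation of a single difference per genotype cannot show that they were unpaired. *Boc*, *Gli1* and *Hhip*, with at most 20 reads in a library, are limited by depth.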
